A study of Mus musculus with 8 samples.

Results

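The inflammasome and pyroptosis genes described here are Nlrp3, Pycard, Casp1, Casp4, Gsdmd, Il1b, Il18, Aim2, Nlrc4 and Ninj1, 10 in all. Each was taken as the row of the deposited expression table that carries its symbol, and all 10 were found among 56465 rows. Of these, 9 had a mean of at least 10 normalized reads over the 8 libraries and entered the test across 19798 features, while Nlrc4 did not. A normalized read is a read divided by the size factor of its library.

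There were 4 libraries from WT retinas, numbered 3, 4, 5 and 7, and 4 from TG retinas, numbered 2, 5, 6 and 8, whose mice express human transferrin. All mice were labelled C57Bl/6J, and every retina had been detached by injecting 10 µl of sodium hyaluronate beneath it and was frozen at 4 days, so undetached retina forms no group. WT held 3 males and 1 female, and TG 2 males and 2 females. By eye, WT had 3 right and 1 left, and TG 2 right and 2 left. The age of the mice, the promoter of the transgene and the number of founder lines were not given in the sources used here. The labels do not say that each retina came from a different mouse, so a p-value here reflects only how far these libraries scatter, which may be technical.

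An inflammasome is a protein platform that forms when a cytosolic sensor such as NLRP3, AIM2 or NLRC4 detects damage or infection and recruits caspase-1, often through the adaptor ASC, the product of Pycard. Caspase-1 matures the cytokines IL-1β and IL-18 and cuts gasdermin D, whose fragments form pores in the plasma membrane. Mouse caspase-11, the product of Casp4, cuts gasdermin D in response to intracellular lipopolysaccharide, and NINJ1 then ruptures the swollen membrane. In the retina several of these genes, though not all, are best known from microglia and infiltrating macrophages. Much of the pathway is controlled after transcription, by cleavage and assembly, which messenger RNA does not record.

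Depth ranged from 61535690 to 75866423 reads per library. Several libraries stood apart in markers of other tissues. Summed over 5 lens genes, WT 3 and TG 6 held 23273.3 and 19022.1 normalized reads, against 35.9 to 4994.54 in the others, and WT 3 also held the most pigment epithelium reads (97047.8, against 3925.65 to 42907.7). The 10 neutrophil and monocyte markers summed to 193 to 2264 in WT and 129 to 391 in TG, with Ccr2, Ngp and Camp under a mean of 10. WT 4 had the most S100a8 and S100a9, calgranulins of neutrophils and monocytes, at 918 and 1024, against 15.6 to 268 and 21.5 to 278 elsewhere. It also had the fewest reads summed over 5 red blood cell genes (2634.9, against 14470 to 39043.5 elsewhere). The sum of 17 microglia and macrophage markers ran from 23992.5 to 33858.8 in WT and from 22988 to 54988.4 in TG, highest in TG 5 and lowest in TG 8. Of these 17, 16 (94.1%) had a positive log2 fold change in TG, against 47.8% of all features. An unadjusted p under 0.05 was reached by 4 (23.5%), against 4.64% of all features, and 0 passed in limma. The 17 were chosen as markers of the same cells and read in the same libraries, so they are not independent observations. Of the neutrophil and monocyte markers, 6 of 7 tested were negative (median -1.11), 1 had an unadjusted p under 0.05 and 0 passed in limma. All 5 endothelium markers were also negative, while 5 of 6 pigment epithelium and 4 of 5 lens markers were positive. The 8 markers of T, B and natural killer cells summed to 51.6 to 151 in WT and 49.6 to 158.5 in TG. Cd8a, Cd79a and Cd4 had means of 39.0, 22.5 and 21.1, and the other 5 had means under 10. Of those 5, Cd3e and Ncr1 were at 0 reads in every library.

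None of the 9 members tested differed between TG and WT at an adjusted p under 0.05 in limma, edgeR or DESeq2, where limma called 0.00505% of all features higher and 0.00505% lower. Casp1 was the 1 member at an unadjusted p under 0.05 with each tool. That is 11.1% of the members against 4.64% of all features at that level in limma. The groups overlapped for every one of the 9, against 2.53% of all features whose groups did not overlap. Members lay on either side of 0, with 4 positive and 5 negative log2 fold changes. Their median was -0.0028, beside -0.017 over all features.

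**Figure D1:**
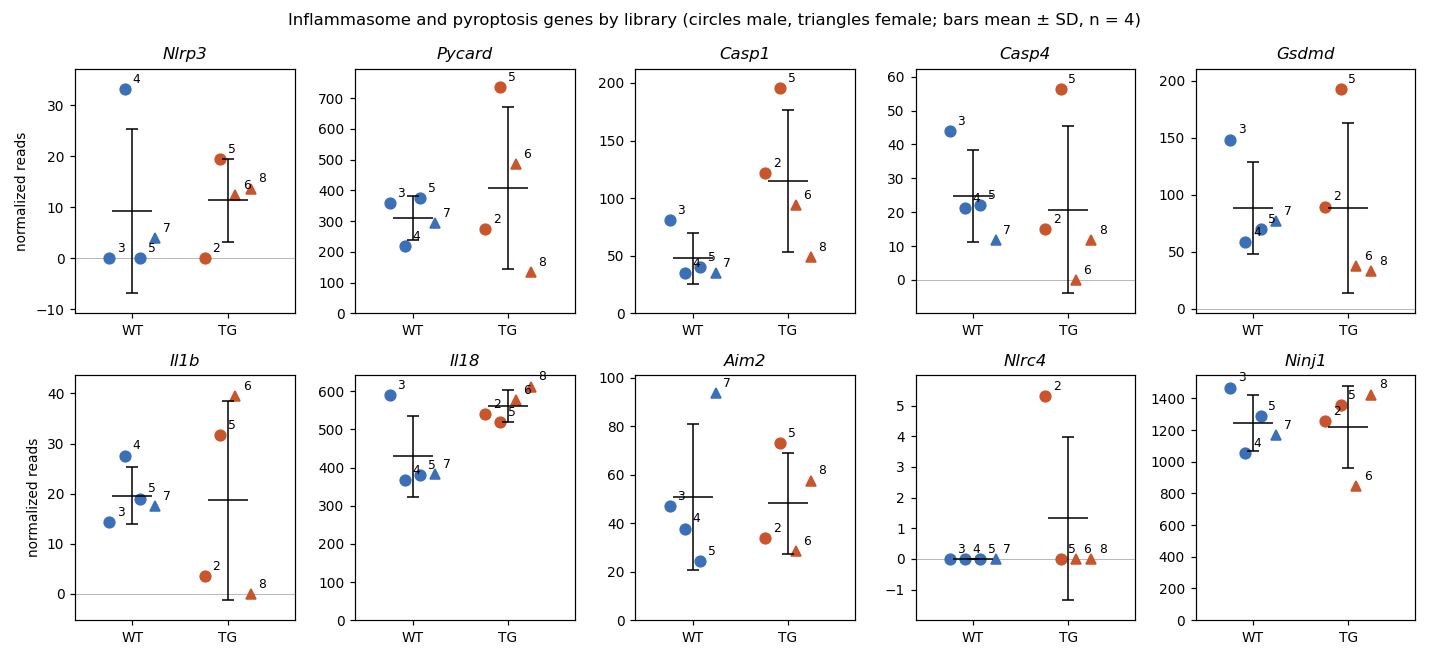
Normalized reads of the 10 members in each library, with the replicate number beside each point, circles for males, triangles for females, and bars for the mean and SD of 4 libraries. The WT and TG points overlap in every panel, TG 5 is highest of all libraries for Pycard, Casp1, Casp4 and Gsdmd, and 3 of the 4 WT points for Casp1 and Il18 lie below all TG points.

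Levels of different genes were compared per kilobase of annotated exon, averaged over all 8 libraries. Ninj1 stood highest at 807 ± 135 normalized reads per kilobase (SD, n = 8), followed by Il18 at 492 ± 102 and Pycard at 168 ± 86.8. Casp1 (54.3 ± 37.3) and Gsdmd (37.1 ± 23.4) formed the middle of the order. Aim2 (16.8 ± 8.16), Il1b (10.1 ± 7.12), Casp4 (6.17 ± 5.02) and Nlrp3 (2.55 ± 2.93) lay lower, and Nlrc4 was last at 0.17. The ranges of neighbouring genes overlapped at every step except that from Il18 to Pycard. Between Casp1 and Gsdmd the order was not shared by the libraries, since Casp1 was the higher in 4 of 8. The substrate cytokine Il18 and the rupture gene Ninj1 were thus far more abundant than any of the 3 sensors.

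Among the sensors, Nlrp3 (chr11:59541585-59566956, plus strand, mm10) was at the edge of detection. It had 0, 33.1, 0 and 3.9 normalized reads in WT 3, 4, 5 and 7, and 0, 19.4, 12.3 and 13.7 in TG 2, 5, 6 and 8. These rest on 36 and 4 reads in the WT libraries that had any and on 22, 10 and 14 in TG, where a count of 0 allows up to 3 reads. The highest value was that of WT 4, the library with the most S100a8 and S100a9. Ngp, Mmp8 and Retnlg were also highest in WT 4, at 27.6, 47.9 and 133 normalized reads. The other markers of that list did not follow, with Ccr2 at 0, Plac8 at its lowest (46.0), and Ly6c2, Csf3r and Camp higher in another library. Whether neutrophils or monocytes contributed to the Nlrp3 value was not tested. For Nlrp3 the log2 fold change, on the log2(value + 1) scale used throughout, was 1.14 ± 1.57 (SE; adjusted p = 0.94, limma). It was 0.25 with edgeR, and it ran from 0.53 without WT 3 or WT 5 to 2.14 without TG 2. Without WT 4, TG 5 or TG 8 its mean fell under the minimum for testing.

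Aim2, a sensor of double-stranded DNA in the cytosol, lies at chr1:173420604-173466040 on the plus strand and was the most abundant of the 3 sensors. It had 47.1, 37.7, 24.3 and 93.6 normalized reads in WT 3, 4, 5 and 7, and 33.7, 73.1, 28.4 and 57.6 in TG 2, 5, 6 and 8. The TG values all lay inside the WT range. Its log2 fold change was -0.0028 ± 0.54 (SE; 95% interval -1.17 to 1.16). Its sign moved with small changes, since it was 0.0068 with upper-quartile scaling, -0.29 without WT 5, 0.34 without WT 7 and 0.49 with males only. Nlrc4, the sensor that works with NAIP proteins (chr17:74426295-74459109, minus strand), had 6 reads in TG 2 and 0 in the other 7 libraries, too few for a comparison.

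Pycard, which encodes the adaptor ASC, was spread more widely in TG than in WT. Its values were 357, 217, 375 and 294 normalized reads in WT 3, 4, 5 and 7 (311 ± 71.4, SD, n = 4). In TG 2, 5, 6 and 8 they were 273, 736, 485 and 135 (407 ± 262). TG 5 lay above and TG 8 below every WT library. TG differed from WT by 0.15 ± 0.42 on the log2 scale (SE; adjusted p = 0.97, limma), which turned to -0.22 without TG 5, -0.018 without TG 6 and -0.0072 without WT 4. TG 5 and TG 8 were also the highest and the lowest library in the microglia and macrophage sum. Its span, chr7:127991373-127993867 on the minus strand, overlaps an unclassified transcript on the opposite strand, Gm45205.

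Casp1, the protease of the canonical inflammasome (chr9:5298517-5307289, plus strand), had the largest positive fold change and the smallest p of the members. It had 80.9, 35.0, 40.2 and 35.1 normalized reads in WT 3, 4, 5 and 7 (47.8 ± 22.2, SD, n = 4). TG 2, 5, 6 and 8 had 121, 195, 93.9 and 48.8 (115 ± 61.5), a mean 2.4 times that of WT. The 3 lower WT libraries lay below all TG libraries, and WT 3 lay above TG 8. On the log2 scale the difference was 1.17 ± 0.49 (SE; unadjusted 95% interval 0.12 to 2.23), which did not pass over all features (adjusted p = 0.92, limma). It remained positive in each of the alternatives run, from 0.66 to 1.65, and passed in none. The lowest was with the microglia and macrophage score as a term (0.66 ± 0.41, SE; adjusted p = 0.72, limma), and the highest was with males only. Without WT 3 and TG 6, the libraries richest in lens reads, it was 1.5. Reads shared between Casp1, Casp4 and the neighbouring Casp12 could have been split in counting, so the low Casp4 values are uncertain in that respect.

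Casp4, which encodes caspase-11, adjoins Casp1 on the plus strand (chr9:5308849-5336791) and is its close relative. Its level was low, at 44.0, 21.2, 22.2 and 11.7 normalized reads in WT 3, 4, 5 and 7, and 15.1, 56.4, 0 and 11.7 in TG 2, 5, 6 and 8. TG 5 was highest and TG 6 had no read. Its log2 fold change of -1.16 ± 1.10 (SE; adjusted p = 0.92, limma) rested on TG 6, since it was -0.04 without that library and -0.23 with edgeR. Without TG 5 it was -1.98. With males only it was 0.091 and without both WT 3 and TG 6 it was 0.28. Although TG 5 was the highest library for both caspases, TG 2 and TG 6 came next for Casp1 and among the 4 lowest for Casp4.

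The bases before the annotated starts of Casp1 and Casp4 are shown because these neighbours differed in pattern over the 8 libraries (Pearson r of log2 values 0.08). Those of Pycard stand beside them because its pattern, though not its level, was nearer to that of Casp1 (r = 0.64). Each run is the 250 bases that precede the start in RefSeq (GRCm38.p6), written 5′ to 3′ on the gene's strand, and promoter entries were found for 9 of the 10 members. Casp1 lies on the plus strand, chr9:5298267-5298516, Casp4 on the plus strand, chr9:5308599-5308848, and Pycard on the minus strand, chr7:127993868-127994117. Capitals mark matches on either strand to any of 5 letter motifs, the PU.1 core GAGGAAG, an IRF pair GAAANNGAA, an NF-κB pattern GGNNNTTCC, the AP-1 site TGANTCA and the STAT site TTCNNNGAA.
Casp1: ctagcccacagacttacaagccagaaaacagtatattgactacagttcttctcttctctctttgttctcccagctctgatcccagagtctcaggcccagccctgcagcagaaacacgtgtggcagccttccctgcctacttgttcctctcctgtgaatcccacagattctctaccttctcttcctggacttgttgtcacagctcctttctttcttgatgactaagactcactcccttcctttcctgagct
Casp4: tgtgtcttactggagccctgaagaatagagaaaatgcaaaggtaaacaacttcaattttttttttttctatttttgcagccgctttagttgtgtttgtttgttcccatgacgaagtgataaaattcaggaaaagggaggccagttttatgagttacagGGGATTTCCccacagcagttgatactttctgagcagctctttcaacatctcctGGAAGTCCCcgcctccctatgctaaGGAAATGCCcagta
Pycard: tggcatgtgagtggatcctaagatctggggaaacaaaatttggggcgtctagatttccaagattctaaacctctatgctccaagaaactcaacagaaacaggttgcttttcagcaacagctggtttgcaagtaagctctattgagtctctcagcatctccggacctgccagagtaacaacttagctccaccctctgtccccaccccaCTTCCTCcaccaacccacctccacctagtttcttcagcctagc

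The Casp4 run held 3 matches to the NF-κB pattern, at bases -92 to -84, -39 to -31 and -14 to -6 before the start, and none to the other motifs. Among 32851 RefSeq starts, 15.7% held that pattern in the same window. Pycard held 1 match to the PU.1 core, at -43 to -37, which 10.6% of starts held. No motif overlapped another, and the Casp1 run held none of the 5. Among the members not printed, Nlrp3 and Nlrc4 also matched the NF-κB pattern and Aim2 the PU.1 core, while the IRF, AP-1 and STAT patterns were in none of the 9 windows and in 7.13%, 6.75% and 7.02% of all starts. A match is a match of letters and not a measured site.

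Gsdmd, the pore former (chr15:75862327-75867406, plus strand), had equal group means. Its values were 148, 58.0, 69.8 and 77.0 normalized reads in WT 3, 4, 5 and 7 (88.3 ± 40.8, SD, n = 4). TG 2, 5, 6 and 8 had 89.5, 193, 37.0 and 33.2 (88.1 ± 74.4). TG held both the highest library, TG 5, and the 2 lowest, TG 6 and TG 8. Its log2 fold change of -0.27 ± 0.56 (SE; adjusted p = 0.96, limma) changed sign without WT 3 (0.0065), TG 6 (0.014) or TG 8 (0.066), with edgeR (0.016), DESeq2 (0.0010), sex as a term (0.0091) or males only (0.63), and without both WT 3 and TG 6 (0.29).

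Ninj1, which encodes the protein that ruptures the membrane in late lytic death (chr13:49187527-49196255, plus strand), was the most abundant and among the least variable members. It had 1469, 1054, 1288 and 1170 normalized reads in WT 3, 4, 5 and 7, and 1255, 1360.5, 846 and 1424 in TG 2, 5, 6 and 8. TG 6 stood below the rest, and the other TG values lay inside the WT range. The difference, -0.05 ± 0.19 on the log2 scale (SE; 95% interval -0.46 to 0.36), became 0.12 without TG 6. It was also positive without WT 3 (0.038), without both WT 3 and TG 6 (0.20), with sex (0.0019) or eye (0.028) as a term, and with males only (0.054).

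Of the 2 cytokines, Il18 was abundant and Il1b scarce. Il18 had 589.5, 366, 379 and 382 normalized reads in WT 3, 4, 5 and 7 (429 ± 107, SD, n = 4). In TG 2, 5, 6 and 8 it had 541, 519, 577 and 613 (562 ± 41.3), a mean 1.31 times that of WT. The TG libraries lay close together, with a coefficient of variation of 7.34%, and above all WT libraries but WT 3. The log2 fold change of 0.41 ± 0.21 (SE; 95% interval -0.03 to 0.86) did not pass (adjusted p = 0.92, limma). It stayed positive in each alternative run, at 0.58 without WT 3 and 0.29 with males only. The span of Il18, chr9:50554850-50581840 on the plus strand, overlaps Bco2 and Tex12 on the opposite strand, and whether the counting used strand was not given in the sources used here.

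Il1b, the cytokine gene that is switched on when the pathway is primed, had 14.3, 27.6, 19.0 and 17.5 normalized reads in WT 3, 4, 5 and 7. TG 2, 5, 6 and 8 had 3.5, 31.7, 39.5 and 0. TG 5 and TG 6 lay above all WT libraries, and TG 2 and TG 8 below them, so the 19.6 ± 5.68 of WT and 18.7 ± 19.8 of TG (SD, n = 4) had near means and unlike spreads. The log2 fold change of -1.19 ± 1.14 (SE; adjusted p = 0.92, limma) was -0.14 without TG 8, which had 0 reads, and -0.09 with edgeR. Without TG 5 it was -1.82 and without TG 6 it was -1.92. The antisense gene Il1bos overlaps Il1b (chr2:129364577-129371142, minus strand), so reads of the pair might not be separated.

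**Figure D2:**
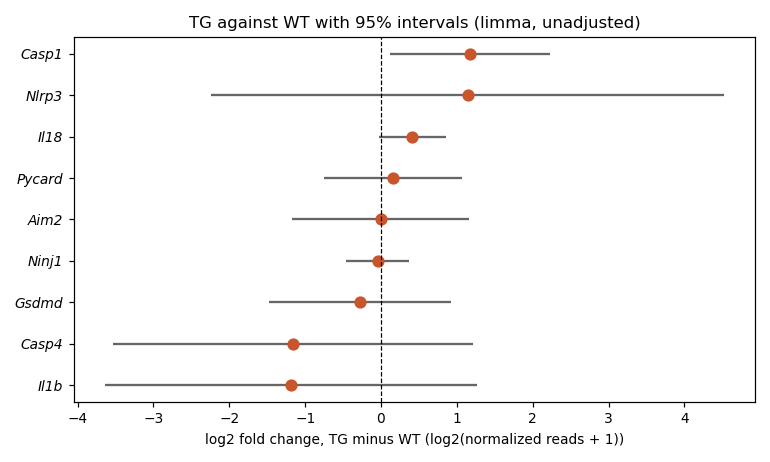
Log2 fold change of the 9 tested members, TG minus WT on the log2(normalized reads + 1) scale, with unadjusted 95% intervals from limma. The interval of Casp1 (0.12 to 2.23) lies above 0, those of Ninj1 (-0.46 to 0.36) and Il18 (-0.03 to 0.86) are the narrowest, and those of Nlrp3, Casp4 and Il1b are the widest.

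The level of microglia and macrophage markers was set beside each member because, in bulk tissue, fewer cells of a type and less RNA per cell cannot be told apart. The score was the mean over the 17 markers of log2(value + 1), centred per gene. It ran from -0.38 to 0.27 in WT and from -0.51 to 0.87 in TG. Across the 8 libraries and over 9 members, Casp1 had the highest correlation with it (Pearson r = 0.92, exact permutation p = 0.0035, adjusted p = 0.032, two-sided; Spearman rho = 0.71, exact permutation p = 0.058, adjusted p = 0.26). Without TG 5 and TG 8, the libraries farthest from the median score, r for Casp1 was again 0.92 over 6 libraries (exact permutation p = 0.093).

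Pycard (r = 0.80, exact permutation p = 0.018, adjusted p = 0.0805; rho = 0.60, p = 0.13, adjusted p = 0.40) and Gsdmd (r = 0.74, exact permutation p = 0.038, adjusted p = 0.12; rho = 0.83, p = 0.015, adjusted p = 0.14) did not pass over the 9 members. Without TG 5 and TG 8 their r was 0.36 and 0.30 over 6 libraries (exact permutation p = 0.48 and 0.56). Leaving out the highest and the lowest score narrows the range, so these values cannot show whether either relation rests on that pair. Within WT, Gsdmd was highest in WT 3, the WT library with the highest score. Of the other members, r was 0.42 for Il1b, 0.40 for Il18, 0.23 for Casp4, 0.18 for Aim2, 0.08 for Ninj1 and 0.03 for Nlrp3, with an adjusted exact permutation p of 0.59 or more. Il18 had r = 0.98 without TG 5 and TG 8 (exact permutation p = 0.029, over 6 libraries). Within TG its highest value was in TG 8, which had the lowest score, and its lowest in TG 5, which had the highest score. Within WT its highest value was in WT 3, which had the highest score. The pooled r of Il18 thus joins groups whose extreme libraries were ordered in opposite ways, a difference that was not tested, and 4 libraries a genotype are too few for a correlation within each. With the score as a term beside genotype, the log2 fold changes were -0.34 ± 0.32 for Pycard and -0.90 ± 0.44 for Gsdmd, against 0.38 ± 0.23 for Il18 (SE), and none passed (adjusted p from 0.66 to 0.81, limma).

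**Figure D3:**
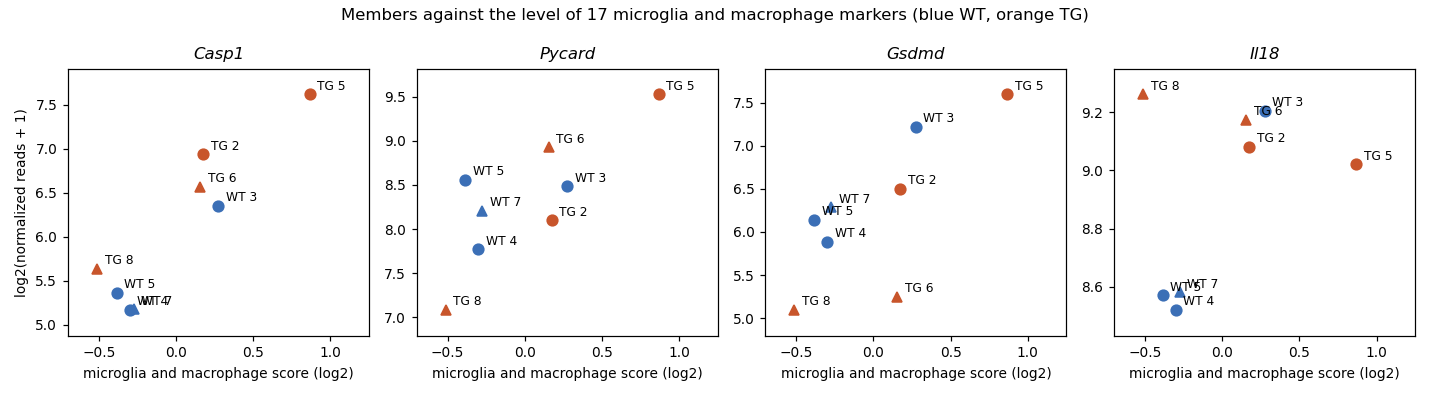
Log2(normalized reads + 1) of Casp1, Pycard, Gsdmd and Il18 in each library against the microglia and macrophage score, a mean of centred log2 values over 17 markers, with WT in blue, TG in orange, circles for males and triangles for females. Casp1 rises with the score (r = 0.92), while for Il18 TG 8 has the lowest score and the highest value (r = 0.40).

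The members did not share a single pattern over the libraries. Pearson r of log2 values between pairs, given as a description over 8 libraries, was highest for Casp4 with Ninj1 (0.82), Pycard with Il1b (0.76) and Casp4 with Gsdmd (0.74). It was 0.64 for Casp1 with Pycard, 0.53 for Casp1 with Gsdmd and 0.08 for Casp1 with Casp4. Casp4 had 0 reads in TG 6, where Ninj1 was lowest, and Il1b had 0 in TG 8, where Pycard was lowest. How far those libraries carry the highest r was not tested. TG 5 was highest of all libraries for 4 members, and TG 8 was lowest for 3, Pycard, Gsdmd and Il1b. Among 12608 features with a symbol and a mean of at least 50, the profiles most like that of Casp1 were B2m (r = 0.97), Mpeg1 (0.96) and Unc93b1 (0.96). Those most like Pycard were Ptpn6 (0.98), Ms4a6c (0.97) and Plekha8 (0.97). Casp4 was most like Pgap2, Dnah7b and Fancg (0.96 each), Gsdmd like Ppp2r2b, Plin2 and Zc3h13 (0.92 each), and Il1b like Tctn2 (0.99), Alkbh2 (0.98) and Crtc2 (0.95). Aim2 was most like Edc3, Ubac2 and Sirt3 (0.95 each), Ninj1 like Ppp1r3a (0.96), Prkg1 (0.94) and Etv4 (0.93), and Nlrp3 like Trmt1l (0.94), Zfp964 (0.94) and Wdr24 (0.91). For Il18 they were the feature labelled Gm1604b and Rnaset2b (0.97), Mastl (0.97) and Tmem51 (0.96). Each r is among the highest of a search of 12608 features over 8 libraries, and how high such a search reaches by chance was not tested. All these pairs share the libraries and their depth.

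The labels also give the sex of each mouse. With genotype as a term, 0 of the 9 members differed between 5 males and 3 females (limma), against 0.0303% of all features called, and 1, Casp4, had an unadjusted p under 0.05, against 3.23% of all features. Casp4 was higher in males by 2.27 ± 1.04 and Gsdmd by 1.13 ± 0.53 on the log2 scale (SE; adjusted p = 0.999 each, limma). The 3 females had 11.7, 0 and 11.7 normalized reads of Casp4, and the 5 males 15.1 to 56.4, so the sexes did not overlap in this gene, as in 3.2% of all features. They overlapped in the other 8 tested members. No member passed a test of whether the genotype effect differed between the sexes (adjusted p for the interaction from 0.48 to 0.92, limma), in a design with 1 WT female.

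Around the members, 5 lists of the wider pathway were read, of which 55 genes had a mean of at least 10. None of the 55 passed in limma, and 3, or 5.45%, had an unadjusted p under 0.05, near the 4.64% of all features. Of the 55, 35 (63.6%) had positive and 20 negative log2 fold changes with a median of 0.07. Over all features 47.8% were positive, with a median of -0.017. The 55 were read in the same 8 libraries, so their signs are not independent. The groups did not overlap in 2 of the 55, Dfna5 and Cd14, against 2.53% of all features. The list of other sensors and assembly factors had 9 of 13 tested members positive and 4 negative (median 0.06). Its lowest p values were those of Nek7, a kinase that binds NLRP3, at -0.75 ± 0.37, Dpp8, a peptidase that restrains NLRP1, at -0.52 ± 0.25, Card9 at 0.72 ± 0.44, and P2rx7, an ATP-gated channel, at 0.69 ± 0.57 (SE). Nek7 lay at 125 to 397 normalized reads in WT and 103 to 199 in TG, with overlap. The other sensor genes Nlrp1a, Nlrp6, Nlrp12, Mefv, Naip1 and Naip6 had means under 10.

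In the list of guanylate-binding and interferon genes, some of which serve the caspase-11 route, 6 of 10 were positive and 4 negative (median 0.08). Irf1, an interferon-induced transcription factor, stood at 0.46 ± 0.31, Gbp5 at -0.45 ± 0.45, Ifi204 at 1.13 ± 0.88 and Gm12250 at -1.05 ± 0.81 (SE). Single libraries moved the last 2 widely, Ifi204 to 0.35 without WT 4 and 1.75 without WT 3, and Gm12250 to -0.23 without TG 8 and -1.77 without TG 5. Among other pore formers, death caspases and membrane repair genes, 7 of 10 were positive and 3 negative (median 0.13). Dfna5, the older symbol of gasdermin E, which caspase-3 cleaves, had 172, 167, 188 and 185 normalized reads in WT 3, 4, 5 and 7. In TG 2, 5, 6 and 8 it had 332, 270, 210 and 373, all above the WT libraries. In 2.53% of all features the groups likewise did not overlap. The difference for Dfna5 was 0.70 ± 0.25 on the log2 scale (SE), which did not pass over all features (adjusted p = 0.92, limma). Casp8 (0.39) and Chmp3 (-0.15) had overlapping groups, and Gsdmc had no read in any library.

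The IL-1 family list had 6 of 9 tested members positive and 3 negative (median 0.098). Il1r1, the signalling receptor of IL-1, had 6.1, 17.5, 0 and 13.6 normalized reads in WT 3, 4, 5 and 7, and 51.4, 33.5, 12.3 and 41.0 in TG 2, 5, 6 and 8. TG 6 lay inside the WT range and the other TG libraries above it (log2 fold change 2.26, unadjusted 95% interval 0.094 to 4.42; adjusted p = 0.92, limma). Without WT 5, which had 0 reads, the value was 1.35, and with a pseudocount of 5 it was 1.55. Il1a stood at 0.84 ± 0.58, the receptor partner gene Il1rap at -0.73 ± 0.54 and Il18bp, whose product traps IL-18, at 0.49 ± 0.45 (SE). The IL-18 receptor gene Il18r1 had no read in any library, while Tnf, Il6 and Il1rl1 had means under 10. In the priming and signalling list 7 of 13 were positive and 6 negative (median 0.03). Cd14, a lipopolysaccharide co-receptor, had 162, 160, 123 and 138 in WT 3, 4, 5 and 7, and 200, 249, 330 and 166 in TG 2, 5, 6 and 8. These groups did not overlap, as in 2.53% of all features, with 162 the highest WT and 166 the lowest TG value (0.66 ± 0.28, SE; adjusted p = 0.92, limma). Tlr2, a sensor of bacterial lipoproteins, stood at 0.75 ± 0.46, with 609 in TG 5, Tnfaip3, an NF-κB inhibitor, at -0.48 ± 0.27 and the adaptor gene Traf6 at -1.24 ± 0.70 (SE).

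**Figure D4:**
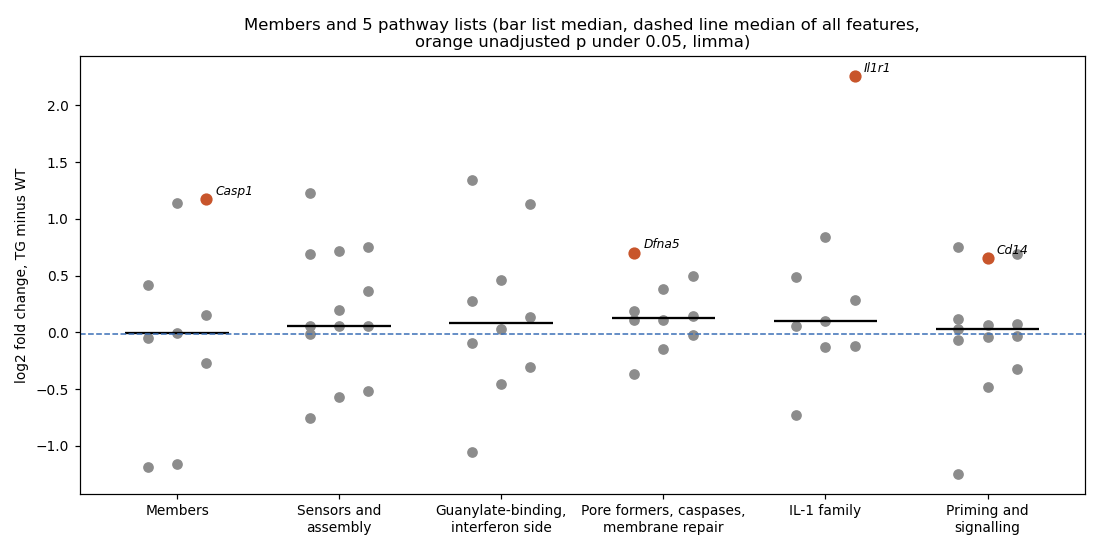
Log2 fold change, TG minus WT, of the 9 tested members and of the tested genes of 5 pathway lists, with a bar at each list's median and a dashed line at the median of all features (-0.017). The genes in orange, Casp1, Dfna5, Il1r1 and Cd14, had an unadjusted p under 0.05 in limma, and no list's median lies more than 0.15 from 0.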

How the data were processed

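RNA was measured in 8 detached mouse retinas by polyadenylation-selected, strand-marking sequencing, per the labels' protocols. The deposited values are read counts that the authors divided by 1 DESeq2 size factor per library, a normalized signal. The submitters' processing notes name STAR 2.4.0, FastQC, Picard, SAMtools, DESeq2 and the build mm10 (GRCm38). What counted the reads, whether by strand, and with which annotation were not given in the sources used here. In each column 100% of values were whole multiples of 1 read's worth, to within 0.01 read, which gave back the reads for the count tests. No sample column was left unmapped, and no pair of libraries was a near-copy (lowest chi-square per feature 45.3).

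TG was compared with WT by limma 3.58.1 (R 4.3.3) on log2(value + 1) with a trended prior variance, keeping features whose mean over the 8 libraries reached 10. P-values were adjusted over all features by the Benjamini-Hochberg method with a threshold of 0.05. edgeR 4.0.16 (quasi-likelihood) and DESeq2 1.42.0 on recovered reads were alternatives, and the limma procedure was tested on simulated data. Other alternatives were TMM and upper-quartile scaling, pseudocounts of 0.5 and 5, a minimum mean of 50 or none, a term for eye or for sex, the males alone, no variance trend and leaving out each library. The microglia and macrophage score as a term, and leaving out WT 3 and TG 6 together, were chosen after seeing the data. Intervals and the floor of 3 reads cover counting or replicate spread as stated, and 95% intervals are two-sided.

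Exon lengths, strand and overlaps came from GENCODE M21 (GRCm38), with exons restricted to the deposited coordinates. All members and, from each list, the 4 genes with the smallest p were named, whatever their test (1 of them is not reported here), with the 3 features most correlated with each tested member among those with a mean of at least 50. Gsdmc, Il18r1, Tnf, Il6, Il1rl1 and the sensor genes under the minimum mean were named after their values were seen. The members and lists were chosen with earlier results of these data known.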

Additional observations from a re-analysis of the deposited data

Results flagged for a closer look

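A screen covered 58 groups of 4 libraries (29 named genes, WT and TG apart), on normalized reads and not on the log2 scale. In 5 groups the highest or lowest library stood off by a larger part of the range than Dixon's 95% critical value for 4 samples. Chance flags about 1 group in 20 where values are normal and groups independent. The groups here share the same 8 libraries and hold unlogged reads, so the 5 cannot be set against that rate. WT 3 was the high library for Casp1 (80.85 normalized reads, next 40.2) and for Il18 (589.5, next 382). WT 4 was high for Nlrp3 (33.14, next 3.9). WT 7 was high for P2rx7 (99.44, next 36.8), and TG 8 was low for Card9 (39.02, next 74.8). WT 3 also held the most lens and pigment epithelium reads and the highest microglia and macrophage score of the WT group. What set these values apart was not tested.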

How the results depend on the processing

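The counts of members called stayed at 0 in both directions under every alternative run. Of 626 recomputed log2 fold changes for 29 named genes, 596 kept their sign and 30 changed it, and none passed an adjusted p of 0.05. The number of all features called higher (1) became 0 with a pseudocount of 0.5, no filter, a minimum mean of 50, sex as a term, no variance trend or the microglia score as a term, 9 with DESeq2, and 0 to 2 without 1 library. The number called lower (1) became 3 with males only, 7 with DESeq2 and 1 to 2 without 1 library. The cause was not tested.

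Without 1 library the log2 fold change ran from -0.22 to 0.60 for Pycard, -0.77 to 0.066 for Gsdmd, -0.29 to 0.34 for Aim2 and -0.13 to 0.12 for Ninj1. With males only the sign changed for Casp4 (0.091), Gsdmd (0.63), Aim2 (0.49), Ninj1 (0.054), Dpp8 (0.018) and Gbp5 (0.26). Without WT 3 and TG 6 it changed for Casp4 (0.28), Gsdmd (0.29), Aim2 (0.23) and Ninj1 (0.20). With sex as a term it changed for Gsdmd (0.0091) and Ninj1 (0.0019), with eye for Ninj1 (0.028), with upper-quartile scaling for Aim2 (0.0068), with edgeR and DESeq2 for Gsdmd (0.016 and 0.0010), and with the microglia score for Pycard (-0.34) and Il18bp (-0.015). Nlrp3, Casp4, Il1b and Il1r1 had libraries at 0 reads, and their fold changes were 0.55, -0.63, -0.57 and 1.55 with a pseudocount of 5. No paired analysis was possible because the labels give no pairing of WT with TG retinas, and the groups share only replicate number 5.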
